A study of Mus musculus with 16 samples.

Results

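The class II odorant receptors of mouse chromosome 7 were followed through cells of the olfactory mucosa that had been sorted by a reporter of neuronal activity, with and without the odorant bourgeonal. The set was chosen by probe set and symbol: every array feature with a chromosome 7 identifier and a symbol of Olfr plus a number, without the class I receptors (a block of consecutive symbol numbers from the class I cluster, Olfr33, Olfr64 to Olfr69 and Olfr78) and without Olfr2 and Olfr17. This gave 109 of the 19505 genes tested, and 109 of the 1080 odorant receptors with such a symbol. All 109 are annotated as protein coding in the reference gene table (GRCm38.p6). The rule uses no measured value, but it was set with earlier results of these data known.

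The mice were C57BL/6, of both sexes and 7 to 12 weeks old, and every one of the 24 carried an S100a5-tauGFP reporter, so that fluorescence follows expression from the S100a5 gene. Each mouse stayed alone in a chamber under clean air for 40 hours, and from hour 26 it received a 10 second pulse of either bourgeonal, a floral aromatic aldehyde, or filtered air (vehicle) every 20 minutes. Mucosa was dissociated, sorted by fluorescence and hybridised to Clariom S arrays, with 3 mice pooled in each library. There were 4 odor pools and 4 vehicle pools, and a library of each gate from every pool, so 16 libraries fell into 4 groups of 4: odor libraries titled GFP-, odor libraries titled GFP+, vehicle libraries titled GFP- and vehicle libraries titled GFP+. For all 16 libraries the gate in the sample title is the opposite of the gate in the cell type field. The groups here follow the titles. A gate ratio is the level in a library titled GFP- over that in the library titled GFP+, on the log2 scale.

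Odorant receptors are G protein-coupled receptors in the cilia of olfactory sensory neurons. A mature neuron expresses 1 receptor gene from 1 allele, so the RNA level of a receptor in a population reflects both how many neurons chose it and how much RNA each of them holds. In bulk libraries these cannot be told apart. Class I receptors resemble those of fish and lie in a single cluster on mouse chromosome 7, whereas class II receptors are the larger class of land vertebrates and lie in many clusters on most chromosomes. The class II receptors of chromosome 7 sit on both sides of the class I cluster, in tandem arrays of duplicated and often very similar genes. S100a5 encodes a calcium-binding protein whose expression in sensory neurons rises with activity, and GFP driven from this gene is meant to mark active neurons.

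Along the chromosome the 109 receptors formed 7 clusters, separated where neighbouring members lay over 1 Mb apart. Cluster 1 held 7 members (Olfr1336 to Olfr1350), cluster 2 held 2 (Olfr291 and Olfr290), cluster 3 held 15 (Olfr310 to Olfr292) and cluster 4 held 2 (Olfr520 and Olfr521). Cluster 5 was the single gene Olfr243, whose neighbours on both sides were class I receptors. The symbol rule kept it in the class II set, and its class was not checked in any other way. Cluster 6 was the largest with 63 members (Olfr693 to Olfr519), and cluster 7 held 19 (Olfr522 to Olfr541).

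Cluster 6 contains a family of 15 members whose coding sequences begin almost alike. In vehicle pools 6 of them were called higher in libraries titled GFP-, 4 were called lower and 5 did not pass. The starts of 8 of its genes, picked after their values were seen, are shown here. Each run is the first 50 coding bases, 5′ to 3′ on the coding strand, from RefSeq on GRCm38.p6. Capitals mark the bases that differ from Olfr494.
Olfr494: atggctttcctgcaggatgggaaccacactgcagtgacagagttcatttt
Olfr495: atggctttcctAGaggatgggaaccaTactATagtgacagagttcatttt
Olfr490: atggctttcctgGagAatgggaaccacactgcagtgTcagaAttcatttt
Olfr488: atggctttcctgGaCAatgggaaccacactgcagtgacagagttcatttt
Olfr482: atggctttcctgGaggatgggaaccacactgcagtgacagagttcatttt
Olfr492: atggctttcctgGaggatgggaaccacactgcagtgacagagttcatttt
Olfr484: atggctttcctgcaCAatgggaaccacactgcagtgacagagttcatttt
Olfr493: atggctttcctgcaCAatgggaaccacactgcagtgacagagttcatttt
In Olfr495 45 of the 50 bases were the same as in Olfr494, and the other 6 had 46 to 49 the same. Olfr482 and Olfr492 were identical over this stretch, and so were Olfr484 and Olfr493. Olfr494 lies at chr7:108367492-108367541 on the plus strand. Olfr495 lies at chr7:108395122-108395171 on the plus strand. Of the rest, Olfr490 lies at chr7:108287075-108287124 on the minus strand, Olfr488 lies at chr7:108256087-108256136 on the minus strand, Olfr482 lies at chr7:108095519-108095568 on the minus strand, Olfr492 lies at chr7:108323625-108323674 on the minus strand, Olfr484 lies at chr7:108125212-108125261 on the minus strand and Olfr493 lies at chr7:108346930-108346979 on the minus strand.

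Cluster 7 holds a pair whose coding starts are also alike, in which capitals mark the bases of Olfr530 that differ from Olfr533.
Olfr533: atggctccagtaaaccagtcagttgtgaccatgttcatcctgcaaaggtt
Olfr530: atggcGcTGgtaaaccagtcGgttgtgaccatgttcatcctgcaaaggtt
In this pair 46 of the 50 bases were the same. Olfr533 lies at chr7:140466203-140466252 on the plus strand. Olfr530 lies at chr7:140373559-140373608 on the minus strand. The positions of the array probes were not given in the sources used here. Whether probes of such similar genes also bind each other's RNA was not tested.

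All values are the deposited log2 expression values. Levels of different probe sets are not compared, since probes differ in how they bind. The 95th percentile of 319 vomeronasal receptor genes, which are receptors of another organ, served as a guide to background in each library and lay between 4.29 and 4.97. Of the 109 receptors, 78 were above this guide in all 16 libraries, 24 in some and 7 in none (Olfr294, Olfr700, Olfr480, Olfr485, Olfr512, Olfr513 and Olfr514). For 93 receptors all 4 libraries of at least 1 group were above it. The library medians over the 109 receptors were 8.71 to 8.96 in libraries titled GFP- and 7.48 to 8.07 in libraries titled GFP+. Where all 4 libraries of a group lay below their guide, the ratio is given as a bound.

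The sort was checked with S100a5. In 8 of 8 pools it was higher on the titled GFP- side, by a mean log2 difference of 1.02 ± 0.25 (SD, n = 8 pools, exact two-sided sign-flip p = 0.00781, the smallest that 256 sign flips allow). The direction opposes the titles and follows the cell type field. Omp, which marks mature sensory neurons, was at 18.63 to 18.97 in all 16 libraries, near the highest values on the arrays. Markers of other cells moved with the gate. All 8 neutrophil markers were lower in libraries titled GFP- in both treatments, and the log2 of their summed signal was 7.57 to 8.32 in odor libraries titled GFP-, against 18.48 to 18.78 in odor libraries titled GFP+. In vehicle pools it was 7.01 to 8.58 in libraries titled GFP-, against 17.66 to 18.83 in those titled GFP+. Camp and Mmp8 were below the guide in all 8 libraries titled GFP-. All 5 microvillar markers and both measured erythroid markers (of 3 listed) were lower as well, as were 6 of 7 immature neuron markers and 5 (odor) and 4 (vehicle) of 6 sustentacular markers. Summed immature neuron signal overlapped between the gates, at 16.77 to 17.03 in odor libraries titled GFP-, against 16.96 to 17.18 in odor libraries titled GFP+. Ncam1, the 1 marker not called, averaged 16.49 in odor libraries titled GFP- and makes up much of that sum. The log2 ratios of Gng8, Dpysl3 and Gap43 were -4.74, -3.83 and -2.39 in odor pools and -4.72, -4.48 and -2.85 in vehicle pools. The median of the 7 markers was -0.62 in odor and -0.60 in vehicle pools. Of 10 mature neuron markers 1 was higher and 0 were lower in each treatment. Each of these values stands beside every gate ratio below, and their part in the ratios of the receptors was not tested.

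The gate ratio compared the RNA level of each receptor between the gates, in pools given pulses of odor or of filtered air alone. In odor pools 50 of the 109 receptors were higher and 20 were lower in libraries titled GFP- (limma, adjusted p under 0.05 over all genes), and 39 did not pass. Over all 19505 genes 7.82% were called higher and 10.2% lower, or 18.1% in all. The receptors' median log2 ratio was 0.58, beside 0.10 over all genes, and their ratios ran from -6.27 to 5.80. With every receptor below background in a gate taken at its bound, 46 higher and 18 lower calls exceeded 2-fold, and 9 higher and 3 lower exceeded 16-fold. Over all 19505 genes, with fitted ratios and no bounds, 458 higher and 1350 lower calls exceeded 2-fold, and 19 and 243 exceeded 16-fold. Olfr474 was called higher but lay below background in both gates, and no fold is given for it. The gates did not overlap for 47 receptors in the higher and 18 in the lower direction, beside 9.17% and 10.1% of all genes.

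In vehicle pools 49 receptors were higher and 21 lower, and 39 did not pass. The background there was 6.23% of genes higher and 9.95% lower, or 16.2% in all. The median was 0.48, beside 0.09 over all genes, and the ratios ran from -6.18 to 5.49. Taken at bounds in the same way, 44 higher and 17 lower calls exceeded 2-fold, and 8 higher and 2 lower exceeded 16-fold. Over all 19505 genes, with fitted ratios and no bounds, 403 higher and 1299 lower calls exceeded 2-fold, and 14 and 222 exceeded 16-fold. Olfr294 and Olfr480 were called higher but lay below background in both gates, and no fold is given for them. The gates did not overlap for 47 higher and 22 lower receptors, beside 8.1% and 10.2% of genes.

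Other odorant receptors had calls in both directions as well. In odor pools 47 of 119 class I receptors of chromosome 7 were higher and 23 lower, and of 850 receptors of other chromosomes 328 were higher and 245 lower. In vehicle pools those counts were 41 and 25 for class I, and 295 and 249 for other chromosomes. The medians in vehicle pools were 0.48 for the class II set, 0.45 for class I and 0.18 for other chromosomes. The share called lower in vehicle pools was 19.3% in the class II set, 21% in class I and 29.3% on other chromosomes. These shares are a description, and the difference between the sets was not tested. Centring each library on its median moved the all-gene median to 0.46 in odor pools and 0.44 in vehicle pools, and gave 65 higher and 19 lower receptors in odor pools and 60 and 19 in vehicle pools. Over all genes it gave 10501 higher and 1522 lower in vehicle pools, against 1216 and 1940 for the values as deposited.

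**Figure D1:**
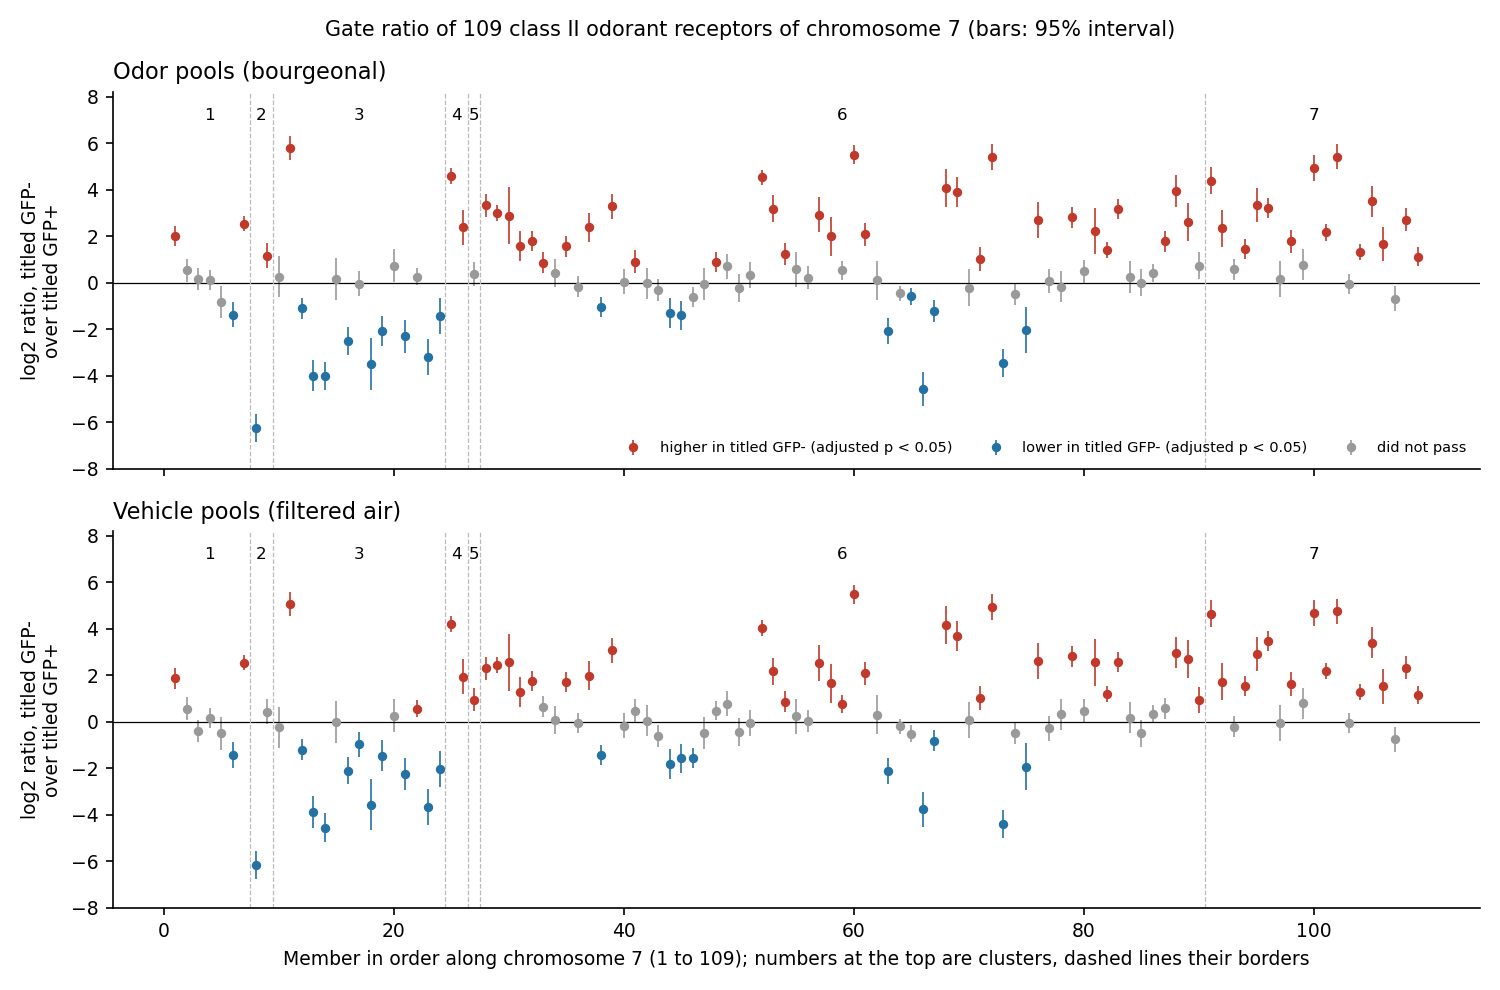
Log2 gate ratio (titled GFP- over titled GFP+) of the 109 receptors in their order along chromosome 7, in odor pools (top) and vehicle pools (bottom), with 95% intervals of the fit, dashed lines between clusters and colours for the call. Cluster 3 lies mostly below 0, with 5 of 15 members above 0 in odor pools and 3 in vehicle pools, Olfr309 the furthest. Cluster 7 has no call below 0 for the values as deposited, and cluster 6 holds calls both ways, in both treatments.

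The clusters differed in direction. In cluster 3, 9 of 15 receptors were lower in odor pools and 10 in vehicle pools, with a median log2 ratio of -1.45 in each treatment. In cluster 7, 14 of 19 were higher and 0 lower in each treatment, with medians of 1.77 in odor pools and 1.64 in vehicle pools, although Olfr539 was called lower in both with an intensity trend and robust variance, and in vehicle pools without vehicle pool 1 or odor pool 4. Cluster 6 went both ways, with 30 higher and 9 lower of 63 in odor pools and 28 higher and 9 lower in vehicle pools. Leaving out each pool in turn kept the vehicle median of cluster 3 between -1.64 and -1.21 and that of cluster 7 between 1.46 and 1.83. With each library centred on its median these vehicle medians were -1.09 and 1.99.

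In cluster 3 the called receptors lay on the titled GFP+ side, except for Olfr309 and, in vehicle pools, Olfr294, which was below background in every library. In odor pools Olfr305 was at 4.83, 4.13, 4.66 and 4.36 in odor libraries titled GFP-, against 8.01, 9.29, 8.46 and 8.33 in those titled GFP+, without overlap (log2 -4.03, 95% interval -4.64 to -3.41, limma adjusted p = 2.33e-06). Only 1 of those 4 odor libraries titled GFP- was above the guide. The odor ratio is therefore not a bound, but it rests on values near background, as does its place among the lower calls over 16-fold. Vehicle values were 4.30, 4.46, 4.79 and 4.17 in vehicle libraries titled GFP-, against 8.41, 9.09, 9.93 and 8.48 in those titled GFP+. Its highest vehicle library titled GFP- lay far under its lowest titled GFP+, and its 4 vehicle values in libraries titled GFP- were below background, so it was at least 17-fold lower there (log2 -4.55, 95% interval -5.16 to -3.93, limma adjusted p = 1.03e-06). In odor pools Olfr307 was at 3.64, 3.45, 3.14 and 2.23 in odor libraries titled GFP-, against 6.29, 7.52, 8.22 and 6.45 in those titled GFP+, at least 4.96-fold lower (log2 -4.0, 95% interval -4.68 to -3.33, limma adjusted p = 4.84e-06). It was at 2.63, 4.44, 2.96 and 2.99 in vehicle libraries titled GFP-, against 6.48, 7.92, 7.16 and 6.98 in those titled GFP+. It was below background in every vehicle library titled GFP- and at least 4.75-fold lower there (log2 -3.88, 95% interval -4.56 to -3.21, limma adjusted p = 6.81e-06). Both receptors were thus found above background on 1 side of the sort in vehicle pools.

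Olfr293 was at 2.80, 4.6, 3.65 and 3.53 in vehicle libraries titled GFP-, against 7.95, 7.64, 7.02 and 6.55 in those titled GFP+, with no overlap and at least 5.28-fold lower (log2 -3.65, 95% interval -4.43 to -2.87, limma adjusted p = 3.27e-05). Olfr299 was at 4.25, 4.19, 4.51 and 3.92 in vehicle libraries titled GFP-, against 7.38, 9.26, 6.67 and 7.81 in those titled GFP+, at least 7.42-fold lower (log2 -3.56, 95% interval -4.67 to -2.46, limma adjusted p = 0.00051). Olfr303 and Olfr295 were above background in both gates and could be measured on both sides. Olfr303 was at 10.57, 10.77, 10.81 and 9.89 in vehicle libraries titled GFP-, against 12.36, 12.57, 13.04 and 12.47 in those titled GFP+, 4.29-fold lower (log2 -2.10, 95% interval -2.69 to -1.51, limma adjusted p = 0.00024). Olfr295 was at 9.83, 9.11, 8.66 and 8.90 in vehicle libraries titled GFP-, against 11.05, 11.72, 11.46 and 11.24 in those titled GFP+, 4.73-fold lower (log2 -2.24, 95% interval -2.94 to -1.55, limma adjusted p = 0.000497). For neither receptor did the gates overlap. The other members called lower in vehicle pools were Olfr308, Olfr301, Olfr298 and Olfr292, with log2 ratios of -2.02 to -0.97.

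Olfr309 stood apart from its cluster. In odor pools it was at 15.61, 15.05, 15.27 and 15.65 in odor libraries titled GFP-, against 9.86, 8.79, 9.26 and 10.49 in those titled GFP+, 55.6-fold higher (log2 5.80, 95% interval 5.28 to 6.31, limma adjusted p = 5.49e-08). Vehicle values were 15.94, 15.62, 15.35 and 15.21 in vehicle libraries titled GFP-, against 10.52, 10.21, 10.05 and 11.03 in those titled GFP+, 33.8-fold higher (log2 5.08, 95% interval 4.57 to 5.59, limma adjusted p = 1.41e-07). The lowest library titled GFP- was more than 4 log2 units above the highest library titled GFP+ in each treatment. Its neighbour on the chromosome, Olfr308, was called lower, so the adjacent genes differed by 6.28 on the log2 scale in vehicle pools.

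Cluster 2, a pair of genes near cluster 3, was split. Olfr291 was at 6.14, 6.55, 7.52 and 6.64 in odor libraries titled GFP-, against 13.03, 12.77, 13.25 and 12.86 in those titled GFP+, 77.0-fold lower (log2 -6.27, 95% interval -6.87 to -5.66, limma adjusted p = 9.3e-08). In vehicle pools it was at 7.41, 6.53, 7.29 and 6.21 in vehicle libraries titled GFP-, against 13.05, 13.03, 12.73 and 13.35 in those titled GFP+. All 4 vehicle libraries titled GFP- were lower than all 4 titled GFP+, by 72.4-fold (log2 -6.18, 95% interval -6.78 to -5.58, limma adjusted p = 1.13e-07), and it was above background in every library of both gates. This was the most negative ratio among the 109 receptors in both treatments. Olfr290, the other gene of the pair, was at 11.31, 11.40, 12.35 and 11.26 in odor libraries titled GFP-, against 10.14, 10.75, 10.09 and 10.67 in those titled GFP+, and was called higher in odor pools (log2 1.17, 95% interval 0.62 to 1.71, limma adjusted p = 0.00739). In vehicle pools it was at 11.38, 11.79, 11.35 and 11.23 in vehicle libraries titled GFP-, against 11.21, 10.95, 10.99 and 10.82 in those titled GFP+ and did not pass (log2 0.45, 95% interval -0.10 to 0.99, limma adjusted p = 0.267), although it did with each library centred on its median (0.80, limma adjusted p = 0.0194).

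**Figure D2:**
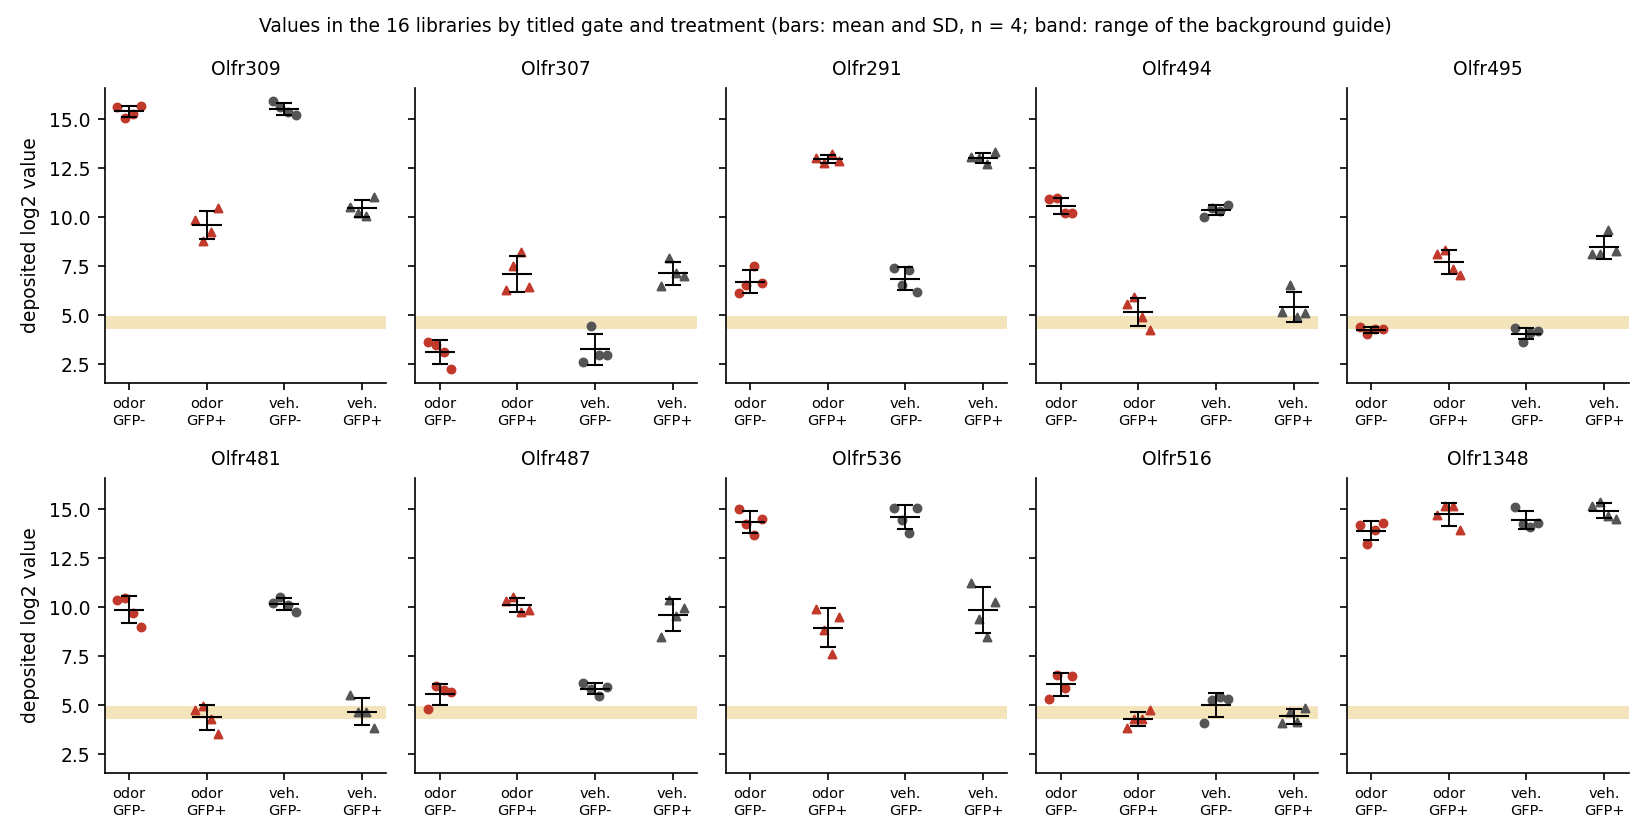
Deposited log2 values of 10 receptors in each of the 16 libraries (circles: titled GFP-, triangles: titled GFP+, red: odor, grey: vehicle), with mean and SD of 4 libraries and a band for the range of the background guide. Olfr309, Olfr494, Olfr481 and Olfr536 are higher and Olfr307, Olfr291, Olfr495 and Olfr487 lower in every library titled GFP-, while Olfr516 lies near the band and the gates of Olfr1348 overlap.

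In cluster 6 the extremes lay among neighbouring genes. Olfr481 had the largest vehicle ratio of all 109 receptors. It was at 10.38, 10.47, 9.69 and 8.98 in odor libraries titled GFP-, against 4.77, 4.96, 4.29 and 3.52 in those titled GFP+ (log2 5.50, 95% interval 5.08 to 5.91, limma adjusted p = 2.79e-08). In vehicle pools it was at 10.22, 10.53, 10.14 and 9.75 in vehicle libraries titled GFP-, against 5.53, 4.66, 4.67 and 3.83 in those titled GFP+, 44.8-fold higher (log2 5.49, 95% interval 5.07 to 5.90, limma adjusted p = 3.03e-08). The gates were far apart, and in libraries titled GFP+ it was near background, with 3 of 4 above the guide in each treatment. Olfr487, a few genes further along, had a ratio of the opposite sign. It was at 4.80, 5.98, 5.77 and 5.67 in odor libraries titled GFP-, against 10.32, 10.54, 9.76 and 9.88 in those titled GFP+, 23.8-fold lower (log2 -4.57, 95% interval -5.32 to -3.83, limma adjusted p = 3.74e-06). It was at 6.11, 5.84, 5.46 and 5.94 in vehicle libraries titled GFP-, against 8.48, 10.39, 9.57 and 9.95 in those titled GFP+, 13.6-fold lower (log2 -3.76, 95% interval -4.51 to -3.02, limma adjusted p = 1.79e-05).

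Olfr494 and Olfr495 are direct neighbours with the nearly identical coding starts shown above. In odor pools Olfr494 was at 10.91, 10.96, 10.22 and 10.19 in odor libraries titled GFP-, against 5.55, 5.92, 4.93 and 4.26 in those titled GFP+ (log2 5.41, 95% interval 4.86 to 5.96, limma adjusted p = 1.29e-07). Olfr495 was at 4.41, 4.05, 4.30 and 4.28 in odor libraries titled GFP-, against 8.13, 8.30, 7.37 and 7.03 in those titled GFP+, at least 7.45-fold lower (log2 -3.45, 95% interval -4.05 to -2.85, limma adjusted p = 6.51e-06). In vehicle pools Olfr494 was at 10.01, 10.48, 10.33 and 10.65 in vehicle libraries titled GFP-, against 5.17, 6.55, 4.89 and 5.10 in those titled GFP+, 30.7-fold higher (log2 4.94, 95% interval 4.39 to 5.49, limma adjusted p = 2.68e-07). Olfr495 was at 4.33, 3.64, 4.07 and 4.17 in vehicle libraries titled GFP-, against 8.12, 8.11, 9.33 and 8.28 in those titled GFP+, below background in all 4 libraries titled GFP- and at least 11.9-fold lower (log2 -4.41, 95% interval -5.01 to -3.80, limma adjusted p = 1.14e-06). So each was high in the gate in which the other was at or near background. Between these neighbours the vehicle ratios differed by at least 8.51 log2 units, with Olfr495 at its bound.

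Other members of cluster 6 with large ratios were Olfr490, Olfr472 and Olfr491. Olfr490 was at 10.49, 9.83, 9.44 and 9.61 in vehicle libraries titled GFP-, against 5.64, 4.98, 5.65 and 6.37 in those titled GFP+, 18.1-fold higher (log2 4.18, 95% interval 3.36 to 5.0, limma adjusted p = 1.6e-05). Olfr472 was at 11.65, 11.63, 10.56 and 11.15 in vehicle libraries titled GFP-, against 7.93, 7.65, 6.45 and 6.82 in those titled GFP+, 16.4-fold higher (log2 4.04, 95% interval 3.71 to 4.36, limma adjusted p = 4.21e-08). Olfr491 was at 13.00, 12.20, 12.46 and 11.79 in vehicle libraries titled GFP-, against 8.96, 7.76, 8.62 and 9.35 in those titled GFP+, 12.9-fold higher (log2 3.69, 95% interval 3.05 to 4.33, limma adjusted p = 6.52e-06). None of the 3 overlapped between the gates. On the other side, Olfr484 was at 5.44, 6.72, 6.86 and 6.38 in vehicle libraries titled GFP-, against 8.11, 9.12, 8.48 and 8.14 in those titled GFP+, 4.32-fold lower (log2 -2.11, 95% interval -2.67 to -1.55, limma adjusted p = 0.000167).

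In cluster 7 the called receptors were all higher in libraries titled GFP-, and most of them lay well above background in both gates. Olfr536 was at 15.04, 14.25, 13.68 and 14.52 in odor libraries titled GFP-, against 9.89, 8.85, 7.61 and 9.49 in those titled GFP+, 42.6-fold higher (log2 5.41, 95% interval 4.88 to 5.94, limma adjusted p = 1.01e-07). Vehicle values were 15.07, 14.47, 13.78 and 15.06 in vehicle libraries titled GFP-, against 11.22, 9.38, 8.48 and 10.28 in those titled GFP+, 27.1-fold higher (log2 4.76, 95% interval 4.23 to 5.29, limma adjusted p = 2.73e-07). Olfr533 was at 15.25, 14.91, 14.47 and 14.63 in vehicle libraries titled GFP-, against 10.92, 9.89, 9.36 and 10.28 in those titled GFP+, 26.1-fold higher (log2 4.70, 95% interval 4.14 to 5.26, limma adjusted p = 4.32e-07). Olfr522 was at 15.57, 15.75, 16.09 and 15.97 in vehicle libraries titled GFP-, against 11.28, 10.56, 11.65 and 11.28 in those titled GFP+, 25.1-fold higher (log2 4.65, 95% interval 4.08 to 5.23, limma adjusted p = 5.25e-07). Each of these 3 was above background in every library, with no overlap between the gates. Olfr541, at the other end of the cluster, had the smallest called ratio, at 15.11, 13.94, 14.09 and 13.57 in vehicle libraries titled GFP-, against 13.80, 12.81, 12.65 and 12.80 in those titled GFP+, 2.24-fold higher (log2 1.16, 95% interval 0.77 to 1.55, limma adjusted p = 0.000908). Its gates overlapped in vehicle pools, since the titled GFP+ library of pool 1 was above 1 library titled GFP-, but within every pool the library titled GFP- was higher. The 5 receptors of the cluster that did not pass in vehicle pools were Olfr524, Olfr530, Olfr532, Olfr538 and Olfr539, with log2 ratios of -0.74 to 0.81.

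The smaller clusters were mixed. In cluster 1, Olfr1350 had a log2 ratio of 2.54 in odor pools, where it was called higher, and in vehicle pools was at 11.07, 11.15, 11.91 and 11.75 in vehicle libraries titled GFP-, against 8.66, 8.69, 8.91 and 9.44 in those titled GFP+, 5.83-fold higher (log2 2.54, 95% interval 2.21 to 2.88, limma adjusted p = 8.25e-07). Olfr1349, its neighbour, had a log2 ratio of -1.37 in odor pools, where it was called lower, and in vehicle pools was at 9.55, 9.76, 10.31 and 9.60 in vehicle libraries titled GFP-, against 11.55, 11.34, 11.16 and 10.90 in those titled GFP+, 2.70-fold lower (log2 -1.43, 95% interval -1.98 to -0.88, limma adjusted p = 0.00236). In cluster 4, Olfr520 was at 8.09, 8.27, 8.07 and 8.40 in vehicle libraries titled GFP-, against 3.72, 4.17, 3.99 and 4.09 in those titled GFP+, below background in all 4 libraries titled GFP+ and at least 13.0-fold higher (log2 4.21, 95% interval 3.87 to 4.56, limma adjusted p = 4.21e-08). Its partner Olfr521 was at 8.95, 8.46, 7.93 and 7.34 in vehicle libraries titled GFP-, against 6.01, 6.69, 6.23 and 5.97 in those titled GFP+, 3.85-fold higher (log2 1.95, 95% interval 1.20 to 2.70, limma adjusted p = 0.00234). Olfr243, kept by the symbol rule although it lies among class I genes, was at 6.57, 6.37, 7.00 and 6.85 in odor libraries titled GFP-, against 7.01, 6.29, 6.07 and 5.91 in those titled GFP+ and did not pass in odor pools (log2 0.38, 95% interval -0.13 to 0.89, limma adjusted p = 0.298). It was at 7.00, 7.09, 7.29 and 6.63 in vehicle libraries titled GFP-, against 5.91, 6.43, 5.93 and 5.89 in those titled GFP+ and was called higher in vehicle pools (log2 0.96, 95% interval 0.45 to 1.47, limma adjusted p = 0.0158), but did not pass without vehicle pool 1 or vehicle pool 3 (limma adjusted p = 0.0596 and 0.0774).

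Receptors whose probe sets gave bright signal in every library had ratios on both sides of 0. Olfr1347 was at 16.16, 15.53, 15.18 and 14.06 in vehicle libraries titled GFP-, against 15.51, 15.40, 14.73 and 14.59 in those titled GFP+ and its gates overlapped (log2 0.18, 95% interval -0.26 to 0.61, limma adjusted p = 0.606). Olfr1348 was at 15.10, 14.26, 14.07 and 14.30 in vehicle libraries titled GFP-, against 15.14, 15.37, 14.67 and 14.52 in those titled GFP+, also with overlap (log2 -0.49, 95% interval -1.19 to 0.21, limma adjusted p = 0.34). Olfr488 was lower in libraries titled GFP-, at 13.53, 13.84, 13.05 and 13.73 in vehicle libraries titled GFP-, against 14.08, 14.68, 14.39 and 14.21 in those titled GFP+ (log2 -0.80, 95% interval -1.26 to -0.35, limma adjusted p = 0.0225). Olfr535 was higher there, at 14.39, 14.38, 14.18 and 14.16 in vehicle libraries titled GFP-, against 12.35, 12.14, 11.83 and 12.02 in those titled GFP+, 4.57-fold (log2 2.19, 95% interval 1.84 to 2.54, limma adjusted p = 3.83e-06).

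Neighbours shared a direction in some places and not in others. Of the 100 pairs of adjacent members, both genes were called in the same direction in vehicle pools in 33 pairs and in opposite directions in 9, while 41 had 1 gene called and 17 had none. Over all 109 receptors 45% were called higher and 19.3% lower there. The shares of such pairs among all pairs within a cluster were not counted. Olfr294 is in opposite pairs and Olfr480 in pairs of the same direction, and both genes were below background in every library. In cluster 7, 8 of 18 adjacent pairs shared a direction, and with 0 members called lower 0 could be opposite. The median absolute difference of the vehicle log2 ratios was 1.78 between adjacent members and 1.81 over all 2252 pairs within a cluster, and neither is at a bound for receptors below background. Among the 64 adjacent pairs with both genes above background in at least 1 vehicle library of each gate it was 1.77, beside 1.86 over 1390 such pairs within a cluster. In 2 of the 64 the difference exceeded 5 log2 units, Olfr291 with Olfr290 and Olfr309 with Olfr308, and in 5 the genes were called in opposite directions.

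Receptors with like coding starts were found both close together and far apart in gate ratio. Among 77 members with a coding start in the sequence table, 2926 pairs were compared, and 97 pairs of 30 members had at least 45 of 50 bases the same. All 97 lay within a cluster. Their vehicle ratios differed by a median of 2.14 log2 units, beside 2.04 for 373 pairs with 25 to 44 bases the same and 2.04 for 2456 pairs with fewer. With both receptors above background in at least 1 vehicle library of each gate, the medians were 2.14 over 71 pairs, 1.94 over 280 and 1.88 over 1479. Of the 97 pairs 89 belong to 1 family of cluster 6, with a median of 2.33, so these values mostly describe that family. The other 8 pairs, of 15 receptors, differed by 0.37 to 4.76 with a median of 1.65, and 0 of them were called in opposite directions. In 16 of the 89 pairs the members were called in opposite directions. The family had 15 members, of which 6 were higher, 4 lower and 5 did not pass. Olfr484 and Olfr493, identical over the 50 bases, had log2 ratios of -2.11 and 1.02 and were called in opposite directions, although Olfr493 did not pass without vehicle pool 1 or 4. Olfr482 and Olfr492, also identical, had 2.09 and 0.08, and Olfr492, at 3.92, 5.59, 5.03 and 5.61 in vehicle libraries titled GFP-, against 5.11, 5.01, 5.46 and 4.25 in those titled GFP+, did not pass. In cluster 7 Olfr533 had 4.70 and Olfr530 had -0.06. These pairs were picked after their values were seen, and pairs that share a member are not independent.

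**Figure D3:**
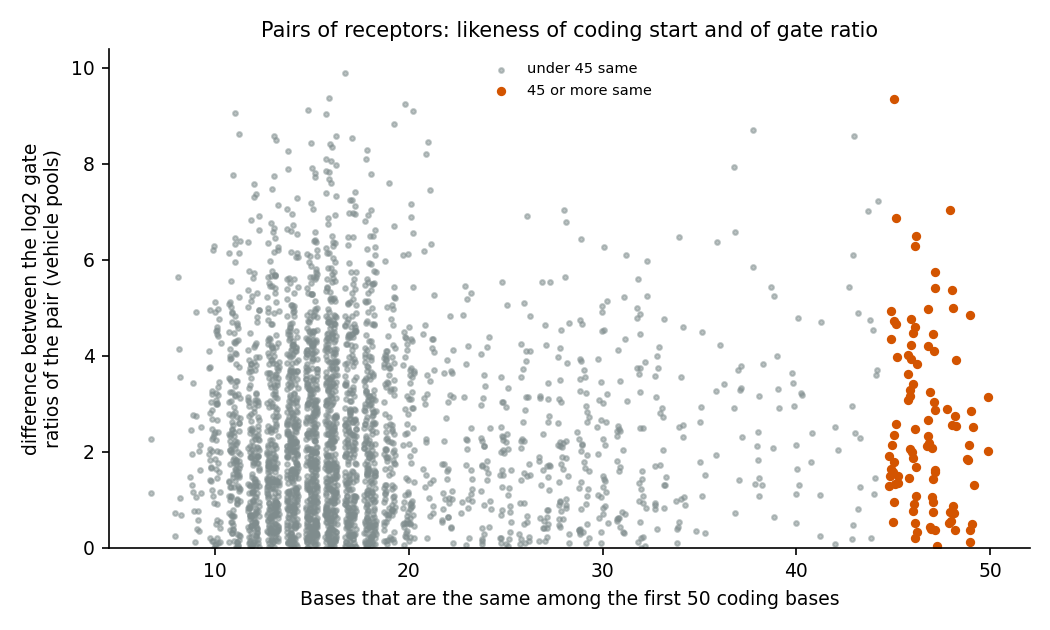
Absolute difference between the vehicle log2 gate ratios of a pair of receptors (vertical axis) against the number of identical bases among their first 50 coding bases (horizontal axis, with slight sideways jitter), for 2926 pairs of 77 receptors. Pairs with 45 or more identical bases (orange) reach 9.35. All pairs with fewer are grey, and among these the pairs with under 25 reach 9.9. Fitted ratios are drawn, also for receptors below background.

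The 250 bases before the start were also compared, aligned without gaps, and the 5 pairs with the most bases the same had 145 to 177. Olfr482 and Olfr487, with 177, had vehicle log2 ratios of 2.09 and -3.76, and Olfr482 and Olfr484, with 170, had 2.09 and -2.11. Olfr469 and Olfr470, with 168, had -0.43 and -0.05, and neither was called. Olfr472 and Olfr473, with 150, had 4.04 and 2.18 and were both called higher. Olfr297 and Olfr293, with 145, had 0.27 and -3.65, and Olfr293 was below background in vehicle libraries titled GFP-. The homeodomain motif TAATNA, searched on both strands, was in 63.3% of 98 member windows of 300 bases, beside 65.9% of 944 odorant receptor windows and 26.5% of all 32851 windows. The motif CCCNNGGG, an inner part of the site of Olf/EBF factors, was in 6.12% of member windows, 3.07% of receptor windows and 13.7% of all windows. The motifs do not overlap each other. In 77 of the 98 windows the annotated start is the coding start, so these windows need not hold the promoter, and a match is only a match of letters.

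The treatments were then set against each other to ask which gate ratios differed with bourgeonal. The gate ratios were close: 45 receptors were higher and 19 lower in both treatments, 0 were called in opposite directions and 33 were called in neither. Over the 8 pools the ratio was positive in every pool for 50 receptors and negative in every pool for 22. The shares of all genes with such calls in both treatments, or with 1 sign in every pool, were not counted. Across the 109 receptors, which share libraries and are not independent, Pearson's correlation of the odor and vehicle ratios was 0.99 and Spearman's 0.98. The odor and vehicle pools were different mice. Called in odor pools alone were Olfr290, Olfr516, Olfr699, Olfr707 and Olfr716 as higher and Olfr486 as lower, and in vehicle pools alone Olfr243, Olfr294, Olfr480 and Olfr519 as higher and Olfr301 and Olfr714 as lower. None of these differed between the treatments past the threshold.

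The difference between the gate ratios, odor minus vehicle, passed for 0 of the 109 receptors and for 0 of all genes, a background of 0%, in limma. At an unadjusted p under 0.05 there were 10 receptors of 109, or 9.17%, beside 5.69% of all genes. The differences ran from -0.81 to 1.20, with a median of 0.14 beside 0.02 over all genes. Over all 1080 odorant receptors the median was 0.13, and 7.22% had an unadjusted p under 0.05, so the shift was not particular to this set. The 95% interval of a single receptor reached a median of 0.77 log2 units to each side, before any adjustment over genes. The largest difference, 1.20, did not pass after that adjustment.

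Olfr516 had the smallest p. In odor pools it was at 5.33, 6.56, 5.88 and 6.51 in odor libraries titled GFP-, against 3.83, 4.30, 4.29 and 4.75 in those titled GFP+ (log2 1.78, 95% interval 1.34 to 2.22, limma adjusted p = 8.68e-05). In vehicle pools it was at 4.08, 5.24, 5.41 and 5.32 in vehicle libraries titled GFP-, against 4.09, 4.63, 4.16 and 4.86 in those titled GFP+ (log2 0.58, 95% interval 0.14 to 1.02, limma adjusted p = 0.0773). The difference was 1.20 (95% interval 0.58 to 1.82, limma adjusted p = 0.807), and it was the single receptor whose 4 odor ratios all lay above its 4 vehicle ratios, a pattern found in 1.89% of all genes. For 0 receptors did all 4 odor ratios lie below the vehicle ratios, beside 1.6% of all genes. The signal of Olfr516 was weak: 1 of 4 odor libraries and 2 of 4 vehicle libraries titled GFP+ were above the guide.

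The next 4 by p were Olfr714, Olfr693, Olfr524 and Olfr473, and none passed. Olfr693 was at 12.70, 12.68, 12.98 and 12.75 in odor libraries titled GFP-, against 9.91, 9.15, 9.12 and 9.65 in those titled GFP+, with a log2 ratio of 3.32, and at 12.23, 12.52, 12.41 and 11.70 in vehicle libraries titled GFP-, against 10.14, 10.06, 9.39 and 10.08 in those titled GFP+, with 2.30. Its difference was 1.02 (95% interval 0.30 to 1.74, limma adjusted p = 0.823). Olfr714 was at 6.70, 6.72, 6.32 and 7.52 in odor libraries titled GFP-, against 7.4, 7.49, 6.69 and 8.17 in those titled GFP+, and did not pass in odor pools. It was at 5.76, 5.77, 6.78 and 6.96 in vehicle libraries titled GFP-, against 7.81, 7.74, 8.26 and 7.71 in those titled GFP+, and was called lower in vehicle pools, a difference of 0.94 (0.31 to 1.56, limma adjusted p = 0.823). Olfr473 differed by 1.00 (0.19 to 1.81) and Olfr524 by 0.79 (0.16 to 1.43), each at the same adjusted p.

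**Figure D4:**
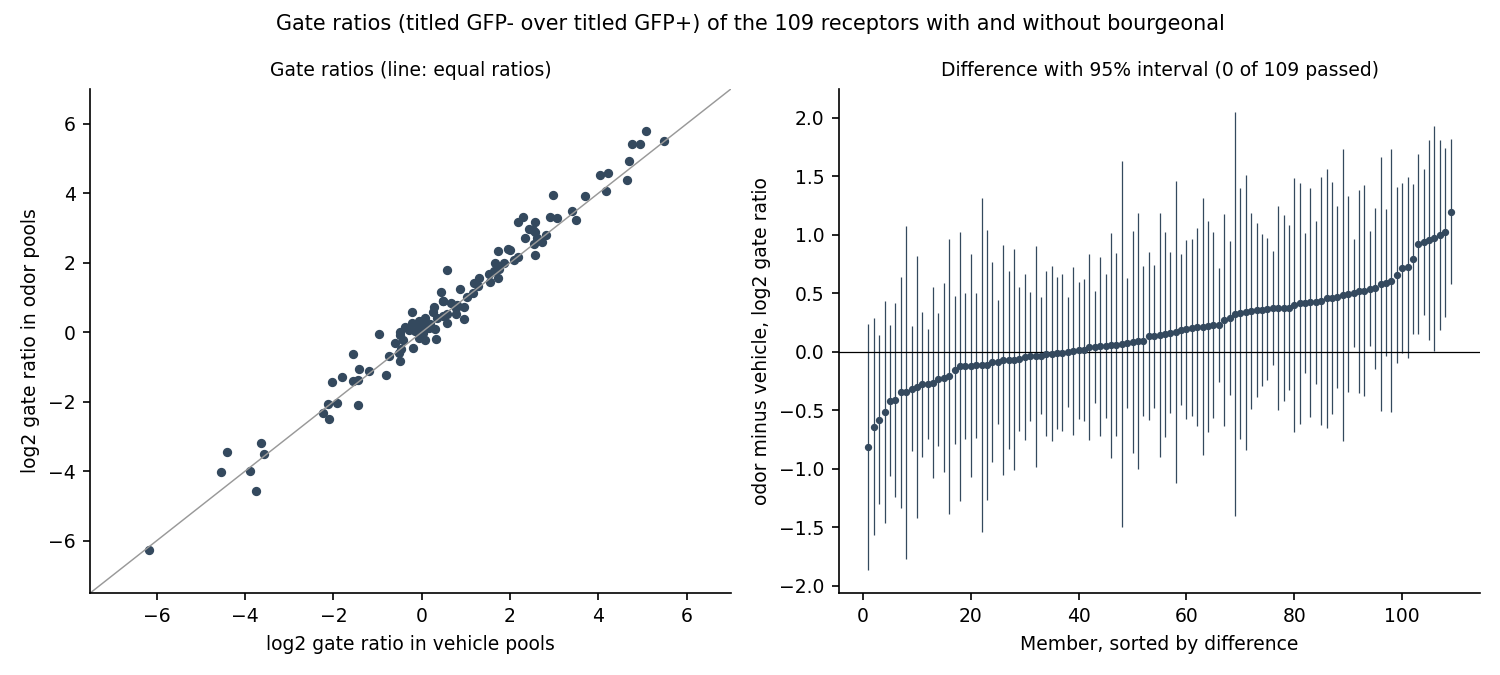
Left, log2 gate ratio in odor pools (vertical) against vehicle pools (horizontal) for the 109 receptors, with a line of equal ratios; right, the odor minus vehicle difference of each receptor with its 95% interval, sorted. Points follow the line from about -6 to 6, and differences lie between -0.81 and 1.20 with 0 of 109 past the threshold.

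Odor was also compared with vehicle within a gate. In libraries titled GFP-, 0 of the 109 receptors and 0 of all genes passed (0%), with 7 receptors, or 6.42%, at an unadjusted p under 0.05, beside 4.46% of all genes. In libraries titled GFP+, 0 receptors passed, beside 0.0103% of all genes, and 9 receptors, or 8.26%, had an unadjusted p under 0.05, beside 4.24%. The median log2 change of the receptors was 0.02 in libraries titled GFP- and -0.14 in libraries titled GFP+, beside 0.03 and -0.08 over all 1080 odorant receptors. Of those 1080, 7.59% and 7.31% had an unadjusted p under 0.05. Both comparisons draw on the same mice as the gate ratios, so the values are set side by side and are not counted as separate support.

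In libraries titled GFP-, Olfr516 was at 5.33, 6.56, 5.88 and 6.51 in odor libraries, against 4.08, 5.24, 5.41 and 5.32 in vehicle libraries (log2 change 1.05, 95% interval 0.31 to 1.80, limma adjusted p = 0.996). Olfr693 was at 12.70, 12.68, 12.98 and 12.75 in odor libraries, against 12.23, 12.52, 12.41 and 11.70 in vehicle libraries (log2 change 0.56, 95% interval 0.14 to 0.98, limma adjusted p = 0.996), and it was the single receptor whose odor values all lay above its vehicle values, beside 1.56% of all genes. Olfr535 was at 13.86, 13.84, 13.94 and 13.99 in odor libraries, against 14.39, 14.38, 14.18 and 14.16 in vehicle libraries (log2 change -0.36, 95% interval -0.67 to -0.06, limma adjusted p = 0.996), the single receptor with every odor value below every vehicle value, beside 1.25% of all genes. Olfr53 and Olfr46, both of cluster 7, had changes of -0.45 each. None of these passed.

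In libraries titled GFP+, the smallest p belonged to Olfr290, at 10.14, 10.75, 10.09 and 10.67 in odor libraries, against 11.21, 10.95, 10.99 and 10.82 in vehicle libraries (log2 change -0.58, 95% interval -0.99 to -0.17, limma adjusted p = 0.999). Olfr531 of cluster 7 was at 8.96, 8.89, 9.07 and 9.14 in odor libraries, against 10.31, 9.18, 9.23 and 9.74 in vehicle libraries (log2 change -0.60, 95% interval -1.11 to -0.09, limma adjusted p = 0.999). For these 2 receptors every odor value lay below every vehicle value, beside 1.24% of all genes, and for 0 receptors did every odor value lie above, beside 1.11%. Olfr309 was at 9.86, 8.79, 9.26 and 10.49 in odor libraries, against 10.52, 10.21, 10.05 and 11.03 in vehicle libraries (log2 change -0.85, 95% interval -1.58 to -0.12, limma adjusted p = 0.999), with overlap. Olfr1336 had a change of -0.49 and Olfr467 a change of 0.47. None passed.

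By cluster, the medians of the changes with odor were below 0 in both gates for clusters 1 and 7. Cluster 2, of 2 genes, had -0.0034 in libraries titled GFP-, between -0.27 and 0.14 with each pool left out, and -0.32 in libraries titled GFP+. The median of cluster 7 was -0.36 in libraries titled GFP-, with 15 of 19 receptors below 0, and -0.48 in libraries titled GFP+, with 17 of 19 below 0. Of all 19505 genes 9159 were below 0 in libraries titled GFP- and 9963 in libraries titled GFP+, and of all 1080 odorant receptors 497 and 669. Receptors of a cluster share the same libraries and are not independent. Cluster 1 had medians of -0.36 and -0.35, while cluster 6 had 0.10 in libraries titled GFP- and -0.09 in libraries titled GFP+. Over all genes the medians were 0.01 and -0.01. Leaving out each pool in turn moved the median of cluster 7 between -0.42 and -0.12 in libraries titled GFP- and between -0.57 and -0.26 in libraries titled GFP+. Without vehicle pool 1 the medians were -0.12 and -0.26, the smallest in size, and without odor pool 3 that of the titled GFP+ gate was -0.29. Quantile normalization gave -0.37 and -0.48. No receptor of cluster 7 passed, and the median difference of its gate ratios was 0.08.

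**Figure D5:**
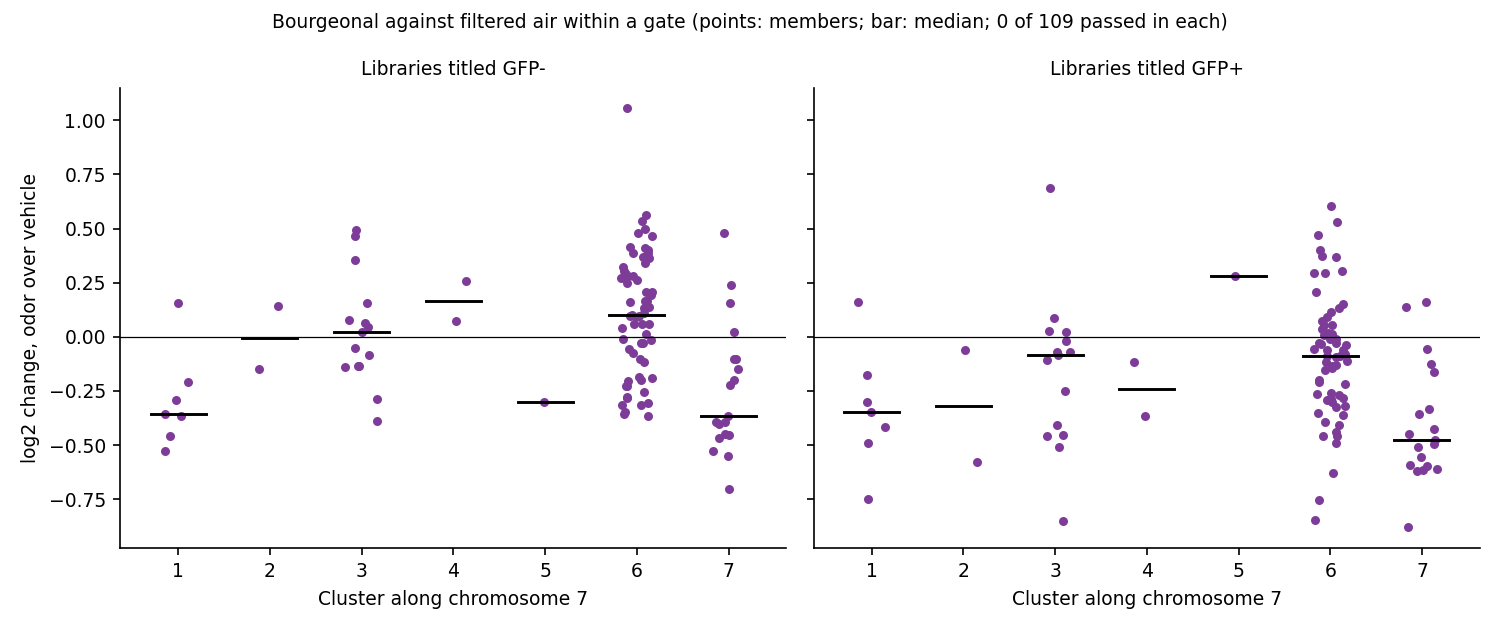
Log2 change with bourgeonal over filtered air for each receptor (points, with slight sideways jitter) and the median (bar) of the 7 clusters, in libraries titled GFP- (left) and titled GFP+ (right). Clusters 1 and 7 have medians between -0.48 and -0.35 in both gates, and 0 of 109 receptors passed in each.

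Most genes of the odorant receptor pathway were not called between the gates. Of 25 genes for receptor choice, trafficking and transduction, 3 were higher and 0 lower in odor pools, with a median of 0.14, and 4 were higher and 0 lower in vehicle pools, with a median of 0.12, beside background shares of 7.82% and 6.23% of genes called higher. The genes higher in both were Pde1c, a phosphodiesterase that breaks down cAMP in the cilia (0.71 in odor and 0.64 in vehicle pools), Ano2, the chloride channel that amplifies the response (0.49 and 0.44), and Slc24a4, the calcium exchanger that ends it (0.54 and 0.49). Pde4a, a phosphodiesterase outside the cilia, was higher in vehicle pools (0.59). The chaperones Rtp1 and Rtp2, which carry receptors to the membrane, had log2 ratios of 0.13 and 0.17 in odor pools and of -0.06 and 0.13 in vehicle pools and did not pass. The transcription factor Lhx2 and its partner Ldb1, which act at receptor enhancers, did not pass either, at -0.04 and -0.17 in odor pools and -0.19 and 0.00 in vehicle pools. Of the activity-linked genes, Kirrel2, an adhesion molecule of active neurons, was higher in both treatments (1.00 and 1.11, limma adjusted p = 0.000262 and 0.000134), and Kirrel3, an adhesion molecule of less active ones, was lower in vehicle pools (-0.54, adjusted p = 0.0242) and did not pass in odor pools (-0.27).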

How the data were processed

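RNA of sorted olfactory mucosa cells was measured on 16 Clariom S arrays, made from 50 to 100 ng of RNA per the labels' protocols. The values are the log2 values the authors deposited, and the submitters' processing notes name Affymetrix Expression Console. Its version, its summarisation and background methods and the build were not given in the sources used here. Base and scale were read from the log2 values: the hybridisation controls bioB, bioC, bioD and cre averaged 8.60, 10.44, 11.64 and 13.31. Library medians over all genes were 5.94 to 6.36, and values were not centred by gene. Arrays have no read depth, so the number of arrays limits the precision.

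Of 28846 probe sets, 94 spike-ins and background probes and 6546 controls marked neg or pos were left out. Of the rest, 19572 named 1 gene, 0 several and 2634 none in the platform annotation. The probe set with the highest mean was kept per gene, leaving 19505 genes and setting 67 probe sets aside. On chromosome 7 there were 232 Olfr probe sets, and 2 whose symbol carries a suffix were left out. All 109 receptors were found in the reference gene table of GRCm38.p6, the source of order and clusters. Sequences were read from RefSeq windows of 250 bases before to 50 after each start, present for 98 of the 109.

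limma 3.58.1 in R 4.3.3 was used (lmFit, eBayes, two-sided, Benjamini-Hochberg over 19505 genes, threshold 0.05). Both gate ratios and their difference came from 1 fit of 16 libraries with the pool as a block. Odor within a gate was fitted on 8 libraries without a block. The fits were also run on simulated data with independent libraries and no pool effect, so that run does not test the pool block. The gates of a pool are taken as the same mice, inferred from the counts of mice, and the correlation of their deviations was 0.0979 to 0.287. The p-values measure the spread between pools of 3 mice. Between odor and vehicle libraries with equal numbers the correlation was 0.157 to 0.210 for the titled GFP+ gate. For the titled GFP- gate it was 0.0879 to 0.161. Libraries with unequal numbers were not compared, so these values cannot show whether equal numbers are pairs. The reported fits of odor against vehicle have no block by number, which was run as an alternative. What a shared number means is not in the labels.

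A bound sets the mean of the gate above background against, per library of the other gate, the higher of its guide and the receptor's own value. Where all 4 libraries of both gates lay below the guide, no fold is given.

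Named receptors were the 10 largest vehicle ratios each way past the threshold, the 5 largest each way in odor pools, the 5 smallest p in each other comparison, the 6 brightest probe sets (a choice of names, with no ranking of levels) and the extremes and small clusters of each region. Pairs by protein identity were also planned, but protein sequences were not used here. Pairs by coding start took their place and were chosen after the values were seen, as were the motifs and the names outside this rule. The members and lists were chosen with earlier results of these data known. Alternatives were no pool block, a replicate block, centring, quantile normalization, a filter on dim genes, every probe set, an intensity trend with robust variance, and leaving out each pool.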

Additional observations from a re-analysis of the deposited data

Results flagged for a closer look

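Within groups of 4, a library or pool stood far from the other 3 in 5 of 82 groups tested, by Dixon's gap test at the 95% level. Chance flags about 1 in 20 such groups. The vehicle gate ratio of Olfr309 was lowest in pool 4, at 4.18, against 5.31 to 5.42 in the other pools. The vehicle gate ratio of Olfr293 was lowest in pool 1, at -5.15, against -3.37 to -3.02 in the others. The level of Olfr516 in vehicle libraries titled GFP- was lowest in pool 1, at 4.08, against 5.24 to 5.41. The level of Olfr53 in the same group was lowest in pool 3, at 12.27, against 12.54 to 12.58. The level of Olfr1336 in odor libraries titled GFP+ was highest in pool 1, at 9.17, against 8.52 to 8.60. Their causes were not tested.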

How the results depend on the processing

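Counts over all 109 receptors past the threshold stayed within 1.5 times the reported value under every alternative run, and no receptor named by the rule reversed. Small counts by cluster could move further. For example, cluster 3 had 3 higher in odor pools with centring, against 1 reported, and 1 higher in vehicle pools under 9 alternatives, against 2, while cluster 7 had 1 lower, against 0, with an intensity trend and robust variance in both treatments and without vehicle pool 1 or odor pool 4 in vehicle pools. The gate calls in odor pools ranged over 48 to 52 higher and 17 to 21 lower when each pool was left out in turn, and over 43 to 50 higher and 18 to 22 lower in vehicle pools. With no replicate block (the pool left out of the fit) there were 51 higher and 19 lower in odor pools and 48 higher and 20 lower in vehicle pools. The difference between treatments stayed at 0 receptors with and without that block. With the replicate block across treatments, odor against vehicle stayed at 0 of the 109 receptors higher and 0 lower in each gate. Over all genes 1 was lower in libraries titled GFP+ with that replicate block, against 2 in the reported fit. Centring each library on its median gave 65 higher and 19 lower in odor pools and 60 higher and 19 lower in vehicle pools, and quantile normalization gave 52 higher and 20 lower in both. Of the receptors called in odor pools, 47 of 50 higher and 17 of 20 lower had the same call under every alternative. Olfr699, Olfr707 and Olfr493 (higher) and Olfr292, Olfr711 and Olfr486 (lower) did not. In vehicle pools it was 39 of 49 higher and 18 of 21 lower. Those that lost it were Olfr294, Olfr243, Olfr695, Olfr697, Olfr474, Olfr479, Olfr480, Olfr493, Olfr519 and Olfr53 (higher) and Olfr301, Olfr488 and Olfr498 (lower). Olfr294 lost its call under 8 of 13 alternatives, Olfr301 under 7 of 14, and Olfr488 with centring and without vehicle pool 2 or 3. Olfr290 passed in vehicle pools with centring (0.80, limma adjusted p = 0.0194), and Olfr243 did not pass without vehicle pool 1 (0.92, limma adjusted p = 0.0596) or 3 (0.83, 0.0774). Over all genes, leaving out vehicle pool 2 reduced the higher calls in vehicle pools to 777 and leaving out odor pool 2 those in odor pools to 935. Signal near background limits the 9 vehicle ratios called as bounds, 2 higher and 7 lower.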
